A study of Mus musculus with 18 samples.

Results

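The genes described here encode the conjugating enzymes of phase II metabolism in mouse liver, the glutathione S-transferases (GST), the microsomal glutathione S-transferases (MGST), the UDP-glucuronosyltransferases (UGT) and the sulfotransferases (SULT). They were chosen by symbol: the Gsta, Gstm, Gstp, Gstt, Gstk, Gsto and Gstz classes, Mgst, Ugt1a, Ugt2a, Ugt2b, Ugt3a and the numbered Sult subfamilies, in each case with an RPKM above 0 in at least 1 mouse. Of 66 such symbols, 64 met the rule, out of 20071 genes above 0 in the whole dataset. Sult1c1 and Sult2a6 were listed at 0 in every mouse. Of the 64 genes, 45 passed the filter for testing (an average of 0.5 RPKM or more across the 18 mice), namely 20 of 22 GST, 2 of 3 MGST, 16 of 20 UGT and 7 of 19 SULT genes.

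Liver RNA from 18 male mice was sequenced to ask how loss of SAPS3, a regulatory subunit of protein phosphatase 6 encoded by Ppp6r3, alters the response to a high-fat diet. FF mice (4 on CD and 5 on HFD) carried floxed Ppp6r3 alleles without Cre, and LKO mice (4 on CD and 5 on HFD) carried the same floxed alleles with Cre under the albumin promoter, a hepatocyte promoter, and Ppp6r3 was not measured by cell type. The control diet (CD) supplied 10 kcal% fat and the high-fat diet (HFD) 32.5 kcal% fat, each for 16 weeks from 8 weeks of age. The floxed alleles were shared by all 4 groups, and no group without them was included. Within a group the labels number the mice. The p-values rest on the spread between mice of a group, pooled over the 4 groups and moderated by a trend over all tested genes.

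Phase II enzymes attach a polar group to drugs, hormones, bilirubin, bile acids and reactive products of lipid oxidation, which makes them easier to excrete. GST enzymes join glutathione to electrophiles, UGT enzymes transfer a sugar from a UDP-sugar (glucuronic acid in the Ugt1a and Ugt2 subfamilies), and SULT enzymes transfer sulfate from the donor PAPS. In rodent liver many of these genes respond to the transcription factor NRF2 and to the xenobiotic receptors CAR, PXR and AHR, and several differ between males and females.

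RPKM, the deposited unit, scales reads to transcript length and to sequencing depth, so levels of different genes are compared here per length. The depth recovered from the tables was 23.4 to 37.0 M reads per mouse, with group medians between 24.9 and 27.1 M, and 3 reads on a 1 kb transcript then correspond to 0.0812 to 0.128 RPKM. This is the smallest depth that fits the steps. A depth 2 times as high gave whole reads for nearly as many genes (for as many in FF CD mouse 2 and FF HFD mouse 3). Reads that are whole at 1 depth stay whole when it is doubled, so this match cannot tell the 2 depths apart. At the doubled depth Mgst3 would have an even number of reads in every mouse. If that depth applied, the estimated reads given here would be too low by that factor. The targeted gene Ppp6r3 was at 8.38 to 10.98 RPKM in FF mice on CD and 7.55 to 8.82 RPKM in FF mice on HFD, against 3.88 to 4.08 RPKM in LKO mice on CD and 4.22 to 4.87 RPKM in LKO mice on HFD, so each LKO mouse lay below each FF mouse. Hepatocyte markers (Alb, Apoa1, Ttr, Tat and Cps1) summed to between 29841 and 47681 RPKM in all mice, whereas pancreas and kidney markers summed to at most 0.048 and 0.0303 RPKM. Differences were taken on the log2(RPKM + 1) scale from a single limma fit of the 4 groups over 11090 tested genes, and a gene was called at an adjusted p under 0.05 (limma, Benjamini-Hochberg over all tested genes, two-sided) with a fold above 1.5 on that scale. Errors of differences are standard errors of that fit.

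The 64 genes together made up 1.72% to 2.22% of the summed RPKM of a mouse. Mgst1, a membrane-bound glutathione transferase and peroxidase, was the most abundant of them with a mean of 1801 RPKM over the 18 mice, rank 22 among all genes and 25.0% of the summed level of the members. Next in order of mean level were Gstp1 (906 RPKM, rank 44), Gsta3 (845 RPKM, rank 47) and Gstm1 (601 RPKM, rank 74). Ugt2b5 led the UGT genes with 392 RPKM and Sult2a8 led the SULT genes with 303 RPKM. A subfamily was often carried by a single gene: Gsta3 made up 94.2% of the Gsta level and Gstp1 97.7% of the Gstp level, so that subfamily sums and the low-level members can move apart. The median summed level of all members was 7573 RPKM in FF mice on CD, 7437 RPKM in LKO mice on CD, 7265 RPKM in FF mice on HFD and 6444 RPKM in LKO mice on HFD, and the ranges of the 4 groups overlapped.

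**Figure D1:**
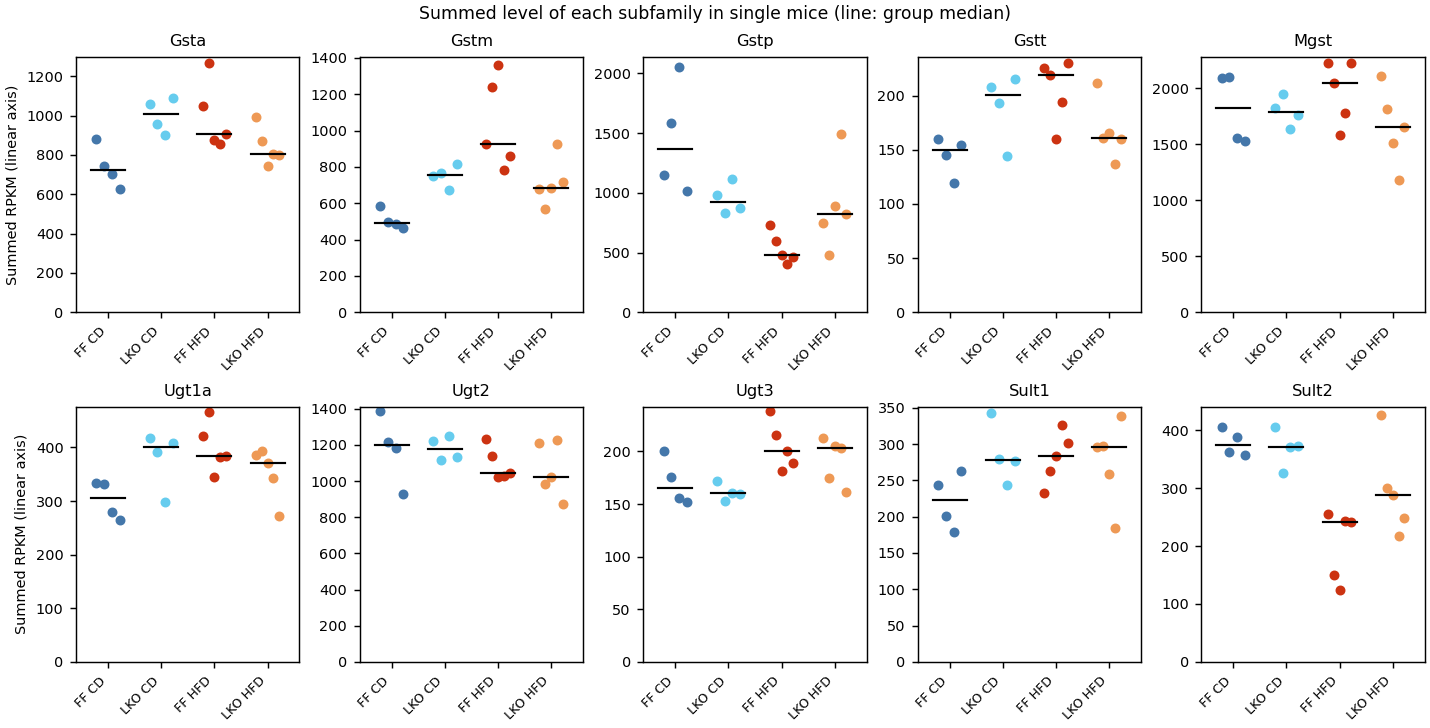
Summed RPKM (linear axis from 0) of 10 subfamilies in single mice, grouped by genotype and diet, with a black line at the group median. The Gstm sum was 466 to 585 RPKM in FF mice on CD and 781 to 1360 RPKM in FF mice on HFD, without overlap, while the Gstp sum was lower on HFD in these mice (401 to 733 RPKM against 1018 to 2054 RPKM).

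In FF mice, HFD changed 17 of the 45 tested members (37.8%), 12 higher and 5 lower, where 6.6% of all tested genes were called. The genes that rose were Gsta1, Gsta2, Gsta4, Gstm1, Gstm2, Gstm3, Gstm4, Gstt3, Mgst3, Ugt1a9, Ugt3a1 and Sult1c2, and those that fell were Gstp1, Gstp2, Ugt2b1, Ugt2b38 and Sult2a8. By direction, 5.11% of all tested genes were called higher and 1.49% lower. The median difference over the 45 members was 0.26 (log2), against 0.07 over all tested genes. An unadjusted p under 0.05 was reached by 27 of the members and by 3734 of all 11090 tested genes. In 19 of the 45 members the mice on CD and on HFD did not overlap, against 18.3% of all tested genes. By family, 10 of 20 GST, 1 of 2 MGST, 4 of 16 UGT and 2 of 7 SULT genes were called.

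Alpha class GST genes rose in FF mice on HFD except for the abundant Gsta3. Gsta1 and Gsta2 encode closely related enzymes that conjugate electrophiles and reduce lipid hydroperoxides, and Gsta4 favours hydroxynonenal, an aldehyde from oxidised lipid. Gsta1 (chr9:78230656-78242684, plus strand, GRCm38) was at 0.508, 0.799, 0.414 and 0.383 RPKM in the 4 FF mice on CD and at 18.2, 39.2, 41.4, 7.96 and 12.3 RPKM in the 5 FF mice on HFD. Every HFD mouse stood far above every CD mouse, and mice 2 and 3 were the highest of the HFD group. The difference was 3.78 ± 0.45 (log2, adjusted p = 2.27e-05), the largest among the tested members. Gsta2 (chr9:78331018-78355788, minus strand) was at 3.21, 3.82, 5.28 and 3.600 RPKM on CD and at 14.1, 24.7, 22.0, 7.57 and 16.3 RPKM on HFD, again without overlap, and rose by 1.77 ± 0.36 (adjusted p = 0.00248). Gsta4 was at 18.6, 16.7, 25.2 and 19.5 RPKM on CD and at 35.1, 57.6, 42.0, 27.2 and 38.9 RPKM on HFD, a rise of 0.94 ± 0.27 (adjusted p = 0.0179) that missed the threshold without FF CD mouse 2 (adjusted p = 0.0538) or FF HFD mouse 2 (adjusted p = 0.052). Gsta3, which detoxifies aflatoxin epoxide in mice, was at a median of 697 RPKM on CD and 840.2 RPKM on HFD and did not pass (0.35 ± 0.13, adjusted p = 0.0737).

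The level of Gsta1 cannot be read apart from that of its close relatives. Of the distinct 50-base stretches in its GENCODE transcripts, 90.5% also occur in another gene, and 75.7% occur in Gm3776, an unnamed neighbour of the Gsta class in sequence. Gm3776 itself was at most 0.0283 RPKM in FF mice on CD and 2.11 to 19.2 RPKM in FF mice on HFD, and it was highest in mice 2 and 3, as Gsta1 was. For Gsta2 the share was 49.8%, mostly with Gsta1. Gsta4 shared no stretch with any other gene, so a read of 50 bases or more could not match another annotated transcript exactly over its full length. Shorter reads and matches with mismatches were not examined.

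Among mu class genes, which conjugate a broad range of electrophiles, 4 of 7 tested members rose in FF mice on HFD. They lie side by side on chromosome 3, from Gstm3 at chr3:107963696-107969283 to Gstm4 at chr3:108040408-108044894, all on the minus strand. Gstm1, the abundant member, was at 413, 352, 389.8 and 346 RPKM on CD and at 736, 996, 1072, 616 and 659 RPKM on HFD. The lowest HFD mouse was well above the highest CD mouse, and mice 2 and 3 were again the highest. Gstm1 rose by 1.09 ± 0.17 (log2, adjusted p = 0.000315). Gstm3 had 15.6, 15.4, 8.30 and 9.07 RPKM on CD and 27.9, 58.8, 96.7, 25.0 and 35.3 RPKM on HFD and rose by 1.79 ± 0.32 (adjusted p = 0.000971), the largest rise of the class. Gstm2 (1.26 ± 0.30, adjusted p = 0.0064) and Gstm4 (0.94 ± 0.21, adjusted p = 0.00378) rose as well, each without overlap between the diets. Gstm5, Gstm6 and Gstm7 lay between -0.18 and 0.14 and did not pass. The share of 50-base stretches that also occur in another gene was 28.8% for Gstm3, 18.9% for Gstm1 and 5.65% for Gstm2. Gstm4 shared none.

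Theta class genes differed in how far they passed. Gstt3 (chr10:75774115-75781414, minus strand) was at 17.6, 12.3, 9.70 and 13.2 RPKM on CD and at 27.0, 27.4, 14.0, 26.6 and 27.6 RPKM on HFD. It rose by 0.83 ± 0.21 (log2, adjusted p = 0.0105) although HFD mouse 3 lay within the range of the CD mice, while the other HFD mice were close together. Gstt1, which handles small halogenated compounds and is the abundant theta member, passed the adjusted p but not the fold (0.43 ± 0.14, adjusted p = 0.0347, at 97.3 to 129 RPKM on CD and 131 to 178 RPKM on HFD). Gstz1, which isomerises maleylacetoacetate in tyrosine breakdown, stood at medians of 256 and 269 RPKM (0.12 ± 0.13, adjusted p = 0.542). None of the kappa, omega and zeta members (Gstk1, Gsto1 and Gstz1) was called in limma, and 1 of these 3 had an unadjusted p under 0.05.

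Pi class genes moved the other way. Gstp1 (chr19:4035407-4037985, minus strand), which in mouse liver is known to be higher in males, was at 1129.9, 1556, 2025 and 997 RPKM in FF mice on CD and at 712, 573, 461, 379 and 439 RPKM on HFD. All HFD mice were below all CD mice, and the CD mice themselves spread widely, with mouse 3 highest. The difference was -1.45 ± 0.27 (log2, adjusted p = 0.00112). Gstp2, its low-level neighbour on chromosome 19, was at 7.40 to 16.1 RPKM on CD and 4.17 to 6.99 RPKM on HFD. It fell by 0.97 (SE 0.26, adjusted p = 0.0137) and was not called without FF CD mouse 3 (adjusted p = 0.0627). Of the 50-base stretches of Gstp2, 49.1% occur in Gstp1, a gene of far higher level. Gstp3 did not pass (0.25 ± 0.17, adjusted p = 0.314).

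Mgst3, a microsomal enzyme that makes leukotriene conjugates and reduces lipid hydroperoxides, had the smallest adjusted p of the members in FF mice. It was at 2.27, 2.66, 2.53 and 2.88 RPKM in FF mice on CD and at 9.57, 13.8, 10.1, 6.44 and 7.95 RPKM in FF mice on HFD. The lowest HFD mouse was well above the highest CD mouse. Mgst3 rose by 1.53 ± 0.16 (log2, adjusted p = 8.61e-06), and it shared no 50-base stretch with another gene. Its values correspond to whole numbers of reads in 18 of 18 mice (65 to 394 reads, within 0.03 of a whole number). Mgst1, at 1528 to 2092 RPKM on CD and 1575 to 2216 RPKM on HFD, did not pass (0.11 ± 0.16, adjusted p = 0.658).

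**Figure D2:**
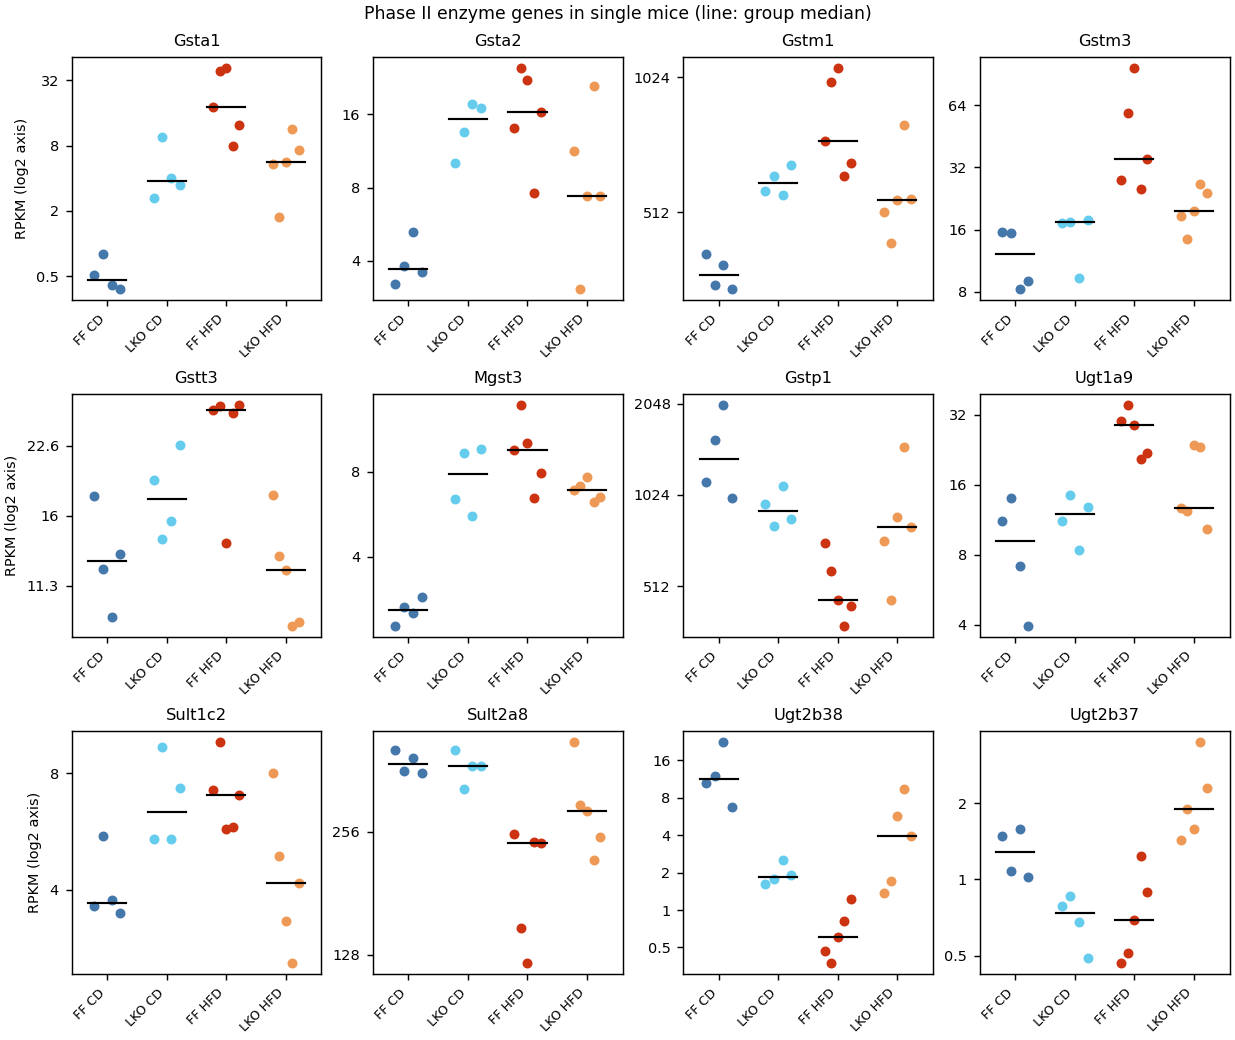
RPKM (log2 axis) of 12 members in single mice by genotype and diet, with a black line at the group median. The 5 FF mice on HFD are above the 4 FF mice on CD for Gsta1, Gsta2, Gstm1, Gstm3, Mgst3, Ugt1a9 and Sult1c2 and below them for Gstp1, Sult2a8 and Ugt2b38, while FF HFD mouse 3 alone lies within the CD range for Gstt3.

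Ugt1a genes share their last exons and differ in the first, so 52.1% (Ugt1a6a) to 79.8% (Ugt1a6b) of their 50-base stretches occur in another gene, and reads of the shared exons cannot be assigned by sequence. In FF mice the difference on HFD was above 0 for all 6 tested Ugt1a genes, and 1 was called. Ugt1a9 was at 11.2, 14.1, 7.13 and 3.95 RPKM on CD and at 30.02, 35.2, 29.0, 20.7 and 22.0 RPKM on HFD and rose by 1.59 ± 0.29 (log2, adjusted p = 0.00109). CD mouse 4 was lowest, and no HFD mouse reached the CD range. Ugt1a6b, the most abundant of the subfamily and an enzyme for planar phenols, was at 109 to 159 RPKM on CD and 126 to 188 RPKM on HFD (0.26 ± 0.16, adjusted p = 0.297). Ugt1a1, the bilirubin-conjugating enzyme, had a difference of 0.40 ± 0.16 (adjusted p = 0.084).

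Ugt3a enzymes use UDP-sugars other than UDP-glucuronic acid. Ugt3a1 (chr15:9276888-9315032, plus strand) was at 35.1, 34.4, 20.2 and 24.9 RPKM in FF mice on CD and at 63.3, 50.9, 40.6, 43.4 and 41.3 RPKM on HFD, with a rise of 0.74 ± 0.16 (log2, adjusted p = 0.00405). The adjacent Ugt3a2 was at 127 to 165 RPKM on CD and 141 to 175 RPKM on HFD and did not pass (0.14 ± 0.10, adjusted p = 0.33).

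Ugt2 genes, whose products conjugate steroids and bile acids among other compounds, lie in a cluster on chromosome 5, and 2 of 8 tested members fell in FF mice on HFD. Ugt2b38 (chr5:87409942-87424203, minus strand) was at 10.6, 12.0, 22.4 and 6.80 RPKM on CD and at 0.469, 0.376, 0.612, 0.811 and 1.22 RPKM on HFD. Even the highest HFD mouse was below the lowest CD mouse by a wide margin. The difference was -2.95 ± 0.35 (log2, adjusted p = 2.68e-05), the largest fall among the members. Ugt2b1 (chr5:86916638-86926530, minus strand) was at 239, 191, 162 and 154 RPKM on CD and at 101, 100.2, 108, 122 and 114 RPKM on HFD, a fall of 0.75 (SE 0.19, adjusted p = 0.00802) without overlap. Ugt2b37, a low-level gene at chr5:87240493-87254804, was at 1.49, 1.08, 1.59 and 1.02 RPKM on CD and at 0.469, 0.512, 0.693, 1.24 and 0.890 RPKM on HFD and did not pass (-0.39 ± 0.16, adjusted p = 0.0824). The abundant Ugt2b5 was at 275 to 478 RPKM on CD and 345 to 452 RPKM on HFD (-0.04 ± 0.16, adjusted p = 0.873).

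Ugt2b38, Ugt2b37 and Ugt2b5 are close copies of each other, and the sequence before their starts is shown because Ugt2b38 and Ugt2b37 were both called in several comparisons while Ugt2b5 was called in none. The runs are the 250 bases upstream of each start in RefSeq on GRCm38.p6, all from the minus strand and written 5′ to 3′, at chr5:87424204-87424453 (Ugt2b38), chr5:87254789-87255038 (Ugt2b37) and chr5:87140341-87140590 (Ugt2b5). The Ugt2b37 window overlaps the GENCODE span of Ugt2b37 given above, as RefSeq and GENCODE place this start differently. Capitals in the lower runs mark bases that differ from Ugt2b38 in the alignment or have no counterpart in its window.
Ugt2b38: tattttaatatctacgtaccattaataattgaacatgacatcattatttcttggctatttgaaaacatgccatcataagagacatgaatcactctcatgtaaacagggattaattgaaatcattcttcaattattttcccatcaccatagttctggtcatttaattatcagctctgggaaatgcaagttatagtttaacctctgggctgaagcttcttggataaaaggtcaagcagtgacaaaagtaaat
Ugt2b37: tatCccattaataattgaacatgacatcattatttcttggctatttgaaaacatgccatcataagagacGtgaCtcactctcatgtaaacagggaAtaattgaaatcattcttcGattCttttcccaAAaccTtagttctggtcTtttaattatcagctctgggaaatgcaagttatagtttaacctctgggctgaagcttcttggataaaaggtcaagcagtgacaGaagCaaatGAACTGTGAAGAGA
Ugt2b5: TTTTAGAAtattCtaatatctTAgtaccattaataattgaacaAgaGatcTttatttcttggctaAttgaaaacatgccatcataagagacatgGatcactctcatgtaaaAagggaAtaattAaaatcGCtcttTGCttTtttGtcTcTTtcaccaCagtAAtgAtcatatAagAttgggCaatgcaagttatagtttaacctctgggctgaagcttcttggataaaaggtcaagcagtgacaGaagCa
Over the aligned part, Ugt2b37 and Ugt2b38 were identical at 224 of 238 positions (94.1%), the closest pair of Ugt2 promoters compared, and Ugt2b5 and Ugt2b38 at 212 of 249 (85.1%). In the transcripts, 34.1% of the 50-base stretches of Ugt2b38 and 15.2% of those of Ugt2b37 occur in Ugt2b5, whose differences in the 4 pairwise comparisons lay between -0.13 and 0.09 (log2). The reads behind a value were an estimated 25.2 to 167 for Ugt2b37 and 18.5 to 992 for Ugt2b38, so the lowest values of both genes rest on few reads.

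Among SULT genes, Sult2a8 and Sult1c2 were called in FF mice. Sult2a8 (chr7:14410686-14446769, minus strand), a bile acid sulfotransferase of mouse liver, was at 405, 361, 387 and 356 RPKM on CD and at 253, 149, 122, 242 and 239.5 RPKM on HFD. The HFD mice were all below the CD mice, with mice 2 and 3 lowest. The fall was 0.96 (log2, SE 0.20, adjusted p = 0.00299). Sult1c2, a phenol sulfotransferase, was at 3.64, 5.50, 3.76 and 3.47 RPKM on CD and at 7.22, 9.61, 5.75, 5.80 and 7.04 RPKM on HFD. CD mouse 2 stood above the other CD mice and just below the lowest HFD mouse. Its rise of 0.66 ± 0.22 (adjusted p = 0.0383) missed the threshold when any of FF CD mice 1, 3 and 4 or FF HFD mice 1, 2 and 5 was left out (adjusted p up to 0.101). The Sult1c2 call was also lost without the filter on low values (0.0726), under quantile normalization (0.0537) and without moderation of the variance (0.0692). Sult1a1, the abundant phenol sulfotransferase, was at 103 to 197 RPKM on CD and 172 to 244 RPKM on HFD and did not pass (0.48 ± 0.21, adjusted p = 0.11). Sult5a1 was at 5.38 to 9.35 and 2.25 to 6.94 RPKM (-0.58 ± 0.28, adjusted p = 0.146).

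Markers of other liver cells also differed between FF mice on CD and on HFD. Of 4 Kupffer cell markers 2 were called higher (summed level 36.2 to 54.6 RPKM on CD and 45.7 to 83.4 RPKM on HFD), as were 2 of 4 sinusoidal endothelium markers (10.8 to 22.4 and 27.7 to 42.8 RPKM), 1 of 4 stellate cell markers (6.63 to 11.6 and 8.97 to 15.6 RPKM) and 1 of 2 neutrophil markers (0.839 to 2.04 and 1.83 to 6.50 RPKM). Of 5 hepatocyte markers, Apoa1 and Cps1 were called lower, and Fabp2, the tested marker on an intestine list, was called higher (42.3 to 90.4 and 121 to 162 RPKM with Vil1). Among 3 tested cholangiocyte, 2 lymphocyte and 1 adipocyte markers 0 were called in limma, with 0, 1 and 1 at an unadjusted p under 0.05. In whole liver, fewer cells of a type and less RNA per cell cannot be told apart, and the part of these cell markers in the differences of the members was not tested.

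In LKO mice, HFD changed 1 of the 45 members (2.22%), where 1.27% of all tested genes were called, 0.965% higher and 0.307% lower. The 12 members that rose in FF mice on HFD had a median difference of 1.18 (log2) there and of -0.11 in LKO mice, with a range of -0.68 to 0.41, and 5 of the 12 had a difference above 0. The 5 that fell in FF mice had a median of -0.97 there and of -0.20 in LKO mice, and 3 of the 5 lay below 0. Both sets were chosen by their values in FF mice, which makes the FF medians larger in size than the LKO medians can be expected to be. None of these 17 was called in LKO mice by limma (lowest adjusted p = 0.157), and 5 of the 45 members had an unadjusted p under 0.05, against 2475 of all 11090 tested genes. The 2 diet comparisons share no mice. Over the 45 members the median difference in LKO mice was -0.13, against 0.07 over all tested genes. In 1 member the diets did not overlap, against 9.04% of all tested genes.

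The called member was Ugt2b37, at 0.788, 0.858, 0.681 and 0.488 RPKM in LKO mice on CD and at 1.43, 1.90, 1.59, 3.48 and 2.30 RPKM in LKO mice on HFD. All HFD mice were above all CD mice, with mouse 4 highest. It rose by 0.85 ± 0.16 (log2, adjusted p = 0.0134), and without LKO CD mouse 3 it was not called (adjusted p = 0.0521). Its relative Ugt2b38 was at 1.62, 1.78, 2.52 and 1.91 RPKM on CD and at 1.37, 1.71, 5.70, 9.46 and 3.92 RPKM on HFD, where HFD mice 1 and 2 were not above the CD mice (0.67 ± 0.35, adjusted p = 0.275). Mgst3 was at 6.41, 9.32, 5.58 and 9.61 RPKM on CD and at 6.90, 7.11, 7.64, 6.23 and 6.48 RPKM on HFD (-0.12 ± 0.16, adjusted p = 0.707), and the HFD values were the closer together.

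Alpha, mu and theta members that rose in FF mice gave mixed values in LKO mice. Gsta1 was at 2.64, 9.67, 4.05 and 3.44 RPKM on CD and at 5.40, 1.74, 5.61, 11.4 and 7.32 RPKM on HFD (0.27 ± 0.45, adjusted p = 0.771). Gsta2 was at 10.1, 13.6, 17.6 and 16.9 RPKM on CD and at 11.3, 3.08, 7.39, 20.9 and 7.37 RPKM on HFD (-0.68 ± 0.36, adjusted p = 0.281). In both genes HFD mouse 2 was the lowest and HFD mouse 4 the highest of its group, and that range covered all CD mice. Gstm1 was at 570.1, 617, 558 and 653 RPKM on CD and at 513, 436, 545, 802 and 549 RPKM on HFD (-0.10 ± 0.17, adjusted p = 0.769). For Gstt3 the values were 19.1, 14.3, 15.6 and 22.7 RPKM on CD and 17.7, 13.1, 12.3, 9.30 and 9.45 RPKM on HFD (-0.51 ± 0.21, adjusted p = 0.165). Both pairs of groups overlapped, and mouse 4 on HFD was the highest for Gstm1 and the lowest for Gstt3.

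Members that fell in FF mice, and Sult1c2, which rose there, were not called in LKO mice. Gstp1 was at 959, 806, 1098 and 851 RPKM on CD and at 719, 459, 865, 1474 and 799 RPKM on HFD (-0.20 ± 0.27, adjusted p = 0.712), with HFD mouse 4 above and HFD mice 1, 2 and 5 below all CD mice. Sult2a8 was at 404, 325, 369 and 371 RPKM on CD and at 423, 298, 288, 218 and 248 RPKM on HFD (-0.35 ± 0.20, adjusted p = 0.328), and Ugt2b1 differed by -0.37 ± 0.19 (adjusted p = 0.247). Sult1c2 was at 5.40, 9.33, 5.39 and 7.32 RPKM on CD and at 7.997, 4.89, 3.31, 2.59 and 4.16 RPKM on HFD (-0.54 ± 0.22, adjusted p = 0.157).

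Of the cell markers, Clec4f (1 of 4 Kupffer cell markers, summed level 30.2 to 49.8 RPKM on CD and 43.2 to 85.1 RPKM on HFD) and S100a8 (1 of 2 neutrophil markers, 1.13 to 1.80 and 2.94 to 5.78 RPKM) were called higher in LKO mice on HFD. Their part in these values was not tested.

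**Figure D3:**
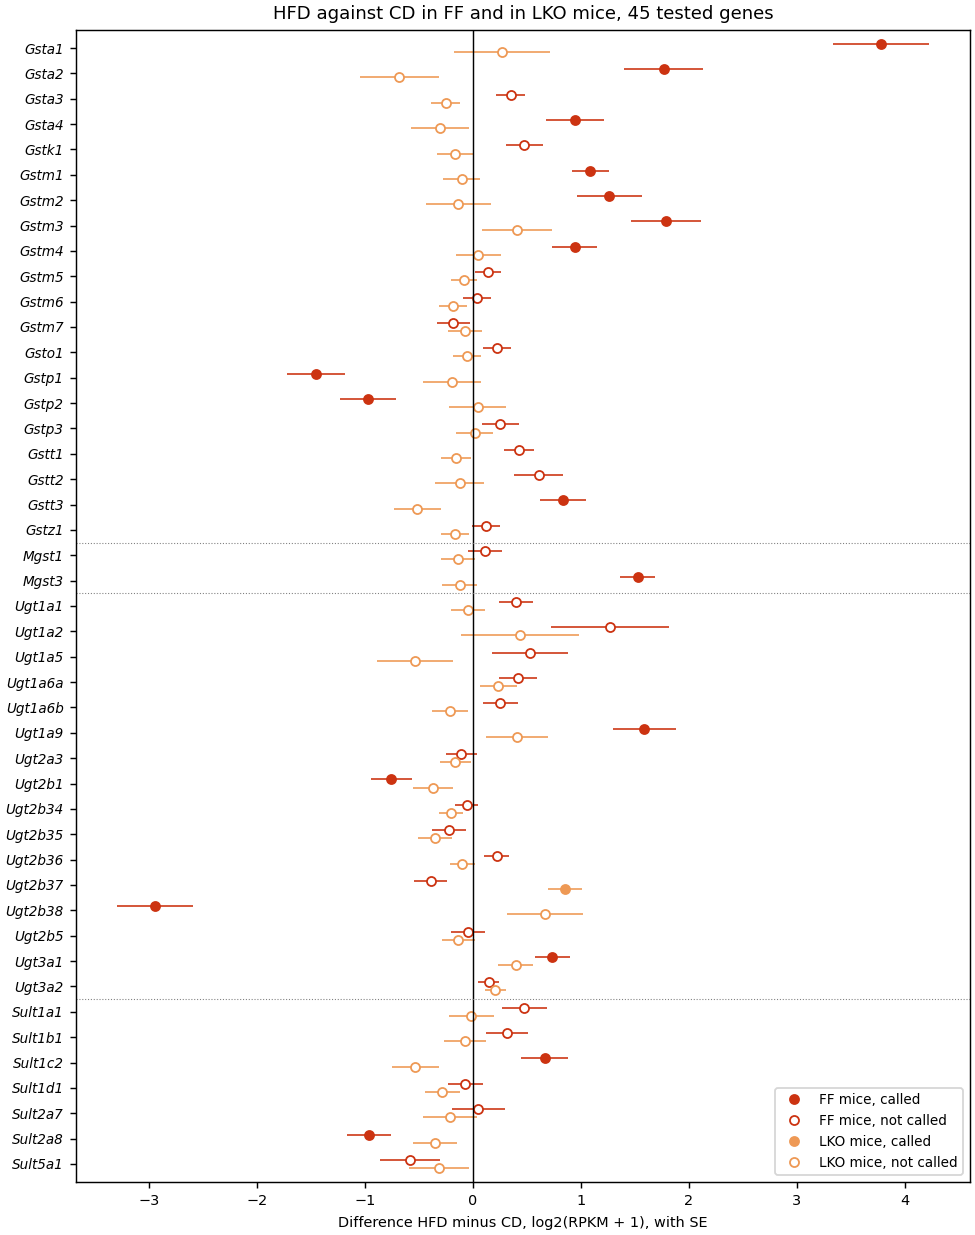
Difference HFD minus CD on the log2(RPKM + 1) scale with its standard error for the 45 tested members, in FF mice (red) and LKO mice (orange), where filled points are called and dotted lines separate GST, MGST, UGT and SULT genes. Among FF mice 17 points are filled, from -2.95 (Ugt2b38) to 3.78 (Gsta1), whereas in LKO mice the values lie between -0.68 and 0.85 and Ugt2b37 alone is filled.

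On CD, LKO and FF mice differed in 2 of the 45 members (4.44%), where 0.225% of all tested genes were called, 0.0902% higher and 0.135% lower. Mgst3 was higher in LKO mice by 1.26 ± 0.17 (log2, adjusted p = 0.00195), and its lowest LKO mouse (5.58 RPKM) was above its highest FF mouse (2.88 RPKM). Ugt2b38 was lower in LKO mice by 2.13 (SE 0.37, adjusted p = 0.0141), again without overlap (1.62 to 2.52 RPKM against 6.80 to 22.4 RPKM), and this call was lost without FF CD mouse 2 (adjusted p = 0.0545), FF CD mouse 3 (0.0778), LKO CD mouse 2 (0.068) or LKO CD mouse 4 (0.0535), as well as without the filter on low values (0.0634) and without moderation of the variance (0.0946). Several other members did not overlap between the genotypes on CD but did not pass limma. They include Gsta1 (1.84 ± 0.47, adjusted p = 0.131), Gsta2 (1.63 ± 0.38, adjusted p = 0.101), Gsta4 (0.67 ± 0.28, adjusted p = 0.539) and Gstm1 (0.68 ± 0.18, adjusted p = 0.156), each higher in every LKO mouse, and Sult5a1 (-0.58 ± 0.29, adjusted p = 0.682), lower in every LKO mouse. In all, 9 of 45 members did not overlap, against 5.07% of all tested genes, and 14 had an unadjusted p under 0.05, against 851 of all 11090 tested genes. The median difference was 0.17 over the members and 0.03 over all tested genes.

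On HFD, LKO and FF mice differed in 5 of the 45 members (11.1%), where 2.07% of all tested genes were called, 0.902% higher and 1.17% lower. Gsta1, Gstm2 and Gstt3 were lower in LKO mice, and Ugt2b37 and Ugt2b38 were higher. Ugt2b37 was above the FF range in every LKO mouse and higher by 0.82 ± 0.15 (log2, adjusted p = 0.00408). Ugt2b38, at 0.376 to 1.22 RPKM in FF mice and 1.37 to 9.46 RPKM in LKO mice, was higher by 1.48 ± 0.33 (adjusted p = 0.0181), and the call was lost without FF HFD mouse 2 (adjusted p = 0.0541) or LKO HFD mouse 3 (0.0604) and without moderation of the variance (0.0517). The highest LKO mouse on HFD still lay below 3 of the 4 FF mice on CD. In 3 members the genotypes did not overlap on HFD, against 4.67% of all tested genes.

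Gstt3 was lower in LKO mice on HFD by 0.93 (log2, SE 0.20, adjusted p = 0.0149), with FF mouse 3 inside the LKO range. Gsta1 was lower by 1.67 (SE 0.42, adjusted p = 0.033), and the groups overlapped because LKO mouse 4 exceeded FF mouse 4. Without FF HFD mouse 2 (adjusted p = 0.0941), FF HFD mouse 3 (0.0785), LKO HFD mouse 2 (0.0716) or LKO HFD mouse 3 (0.0734) it was not called. The Gsta1 call was also lost without the filter on low values (0.0727), in a fit of only the groups compared (0.0908), with a replicate block (0.0564) and without moderation of the variance (0.0716). Gstm2 was at 48.0, 77.4, 92.2, 41.4 and 58.6 RPKM in FF mice and at 34.3, 22.7, 25.2, 20.8 and 38.7 RPKM in LKO mice, without overlap, and was lower by 1.11 (SE 0.28, adjusted p = 0.0343). This call was lost when any of FF HFD mice 2, 3 and 5 or LKO HFD mice 2, 3 and 4 was left out (adjusted p 0.0628 to 0.0922), without the filter on low values (0.0719) and without moderation of the variance (0.0712). The number of members called on HFD was 2 without FF HFD mouse 2 or LKO HFD mouse 3 and 3 without FF HFD mouse 3. Gstm3 (-1.04 ± 0.31, adjusted p = 0.0607), Gstm1 (-0.51 ± 0.16, adjusted p = 0.0801) and Sult2a8 (0.57 ± 0.19, adjusted p = 0.103) came next without passing. The median difference was -0.18 over the members and 0.03 over all tested genes, and 16 members had an unadjusted p under 0.05, against 2145 of all 11090 tested genes. Of the cell markers, Apoa1 was called higher and Col1a1 lower in LKO mice on HFD (summed stellate level 8.97 to 15.6 RPKM in FF and 5.98 to 11.5 RPKM in LKO mice), and their part in these differences was not tested.

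**Figure D4:**
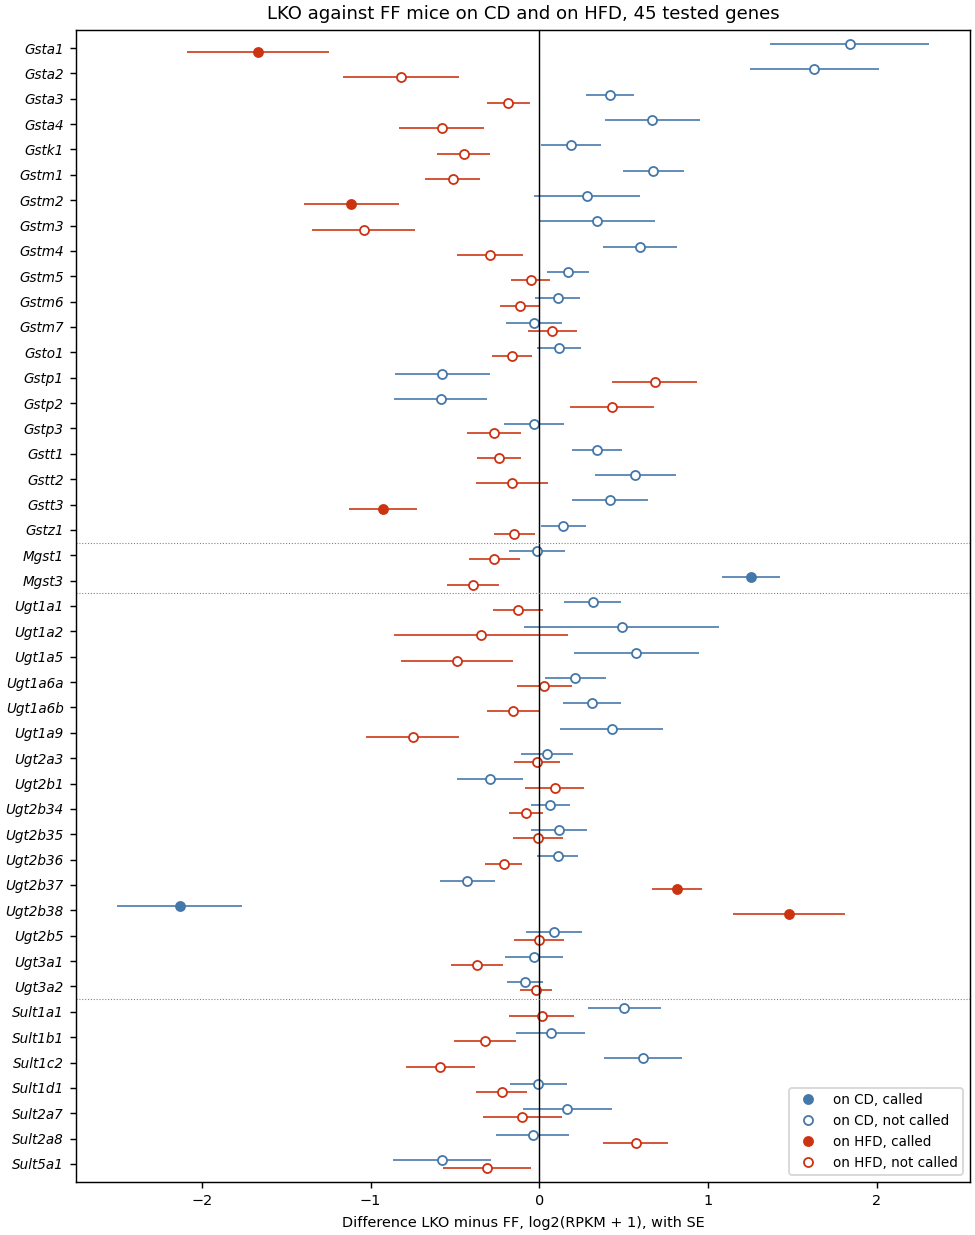
Difference LKO minus FF on the log2(RPKM + 1) scale with its standard error for the 45 tested members, on CD (blue) and on HFD (red), where filled points are called. On CD the filled points are Mgst3 (1.26) and Ugt2b38 (-2.13), and on HFD they are Ugt2b37 (0.82), Ugt2b38 (1.48), Gsta1 (-1.67), Gstm2 (-1.11) and Gstt3 (-0.93).

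The difference between the diet responses of LKO and FF mice was tested itself as an interaction, and 8 of 45 members (17.8%) passed, where 2.44% of all tested genes were called, 0.947% higher and 1.5% lower. The response was lower in LKO mice for Gsta1, Gsta2, Gstm1, Gstt3, Mgst3 and Sult1c2, and higher for Ugt2b37 and Ugt2b38. Ugt2b38 had the largest value, 3.61 ± 0.50 (log2, adjusted p = 0.00048), followed in size by Gsta1 (-3.51 ± 0.63, adjusted p = 0.00442) and Gsta2 (-2.45 ± 0.52, adjusted p = 0.0134). Mgst3 gave -1.65 ± 0.23 (adjusted p = 0.000581), Gstm1 -1.19 ± 0.24 (adjusted p = 0.0107) and Ugt2b37 1.24 ± 0.22 (adjusted p = 0.00406). Gstt3 (-1.35 ± 0.30, adjusted p = 0.0211) was lost without FF CD mouse 3 (adjusted p = 0.0616) or LKO CD mouse 4 (0.0583), without the filter on low values (0.0544) and without moderation of the variance (0.0557). Sult1c2 (-1.20 ± 0.31, adjusted p = 0.0416) was lost when any of 12 mice was left out, namely FF CD mice 1, 3 and 4, LKO CD mice 2 and 4, FF HFD mice 1, 2 and 5 and LKO HFD mice 2, 3, 4 and 5 (adjusted p 0.0501 to 0.109), without the filter (0.101) and without moderation (0.0942). The median interaction was -0.32 over the members and -0.01 over all tested genes, and 21 members had an unadjusted p under 0.05, against 1830 of all 11090 tested genes.

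An interaction can be written as the genotype difference on HFD minus that on CD, and the members divided it differently. For Mgst3 the genotype difference was 1.26 on CD and -0.39 on HFD, and for Gsta2 it was 1.63 on CD and -0.82 on HFD, so the larger share came from the CD groups. Gsta1 had 1.84 on CD and -1.67 on HFD. The log2(RPKM + 1) scale shrinks differences between low values, so the split of low genes depends on it. Gsta1 medians were 0.461 RPKM (FF) and 3.75 RPKM (LKO) on CD, and 18.2 and 5.61 RPKM on HFD, so its CD part is the more understated. For Gstt3 the values were 0.42 and -0.93, with the larger share on HFD, and Sult1c2 had nearly equal sizes of 0.61 and -0.59. Ugt2b38 went from -2.13 on CD to 1.48 on HFD and Ugt2b37 from -0.43 to 0.82. Ugt2b38 medians were 11.3 RPKM (FF) and 1.84 RPKM (LKO) on CD, and 0.612 and 3.92 RPKM on HFD, so its HFD part is the more understated. Each of these genotype comparisons uses the same mice as a diet comparison above, so they are not independent readings of it.

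**Figure D5:**
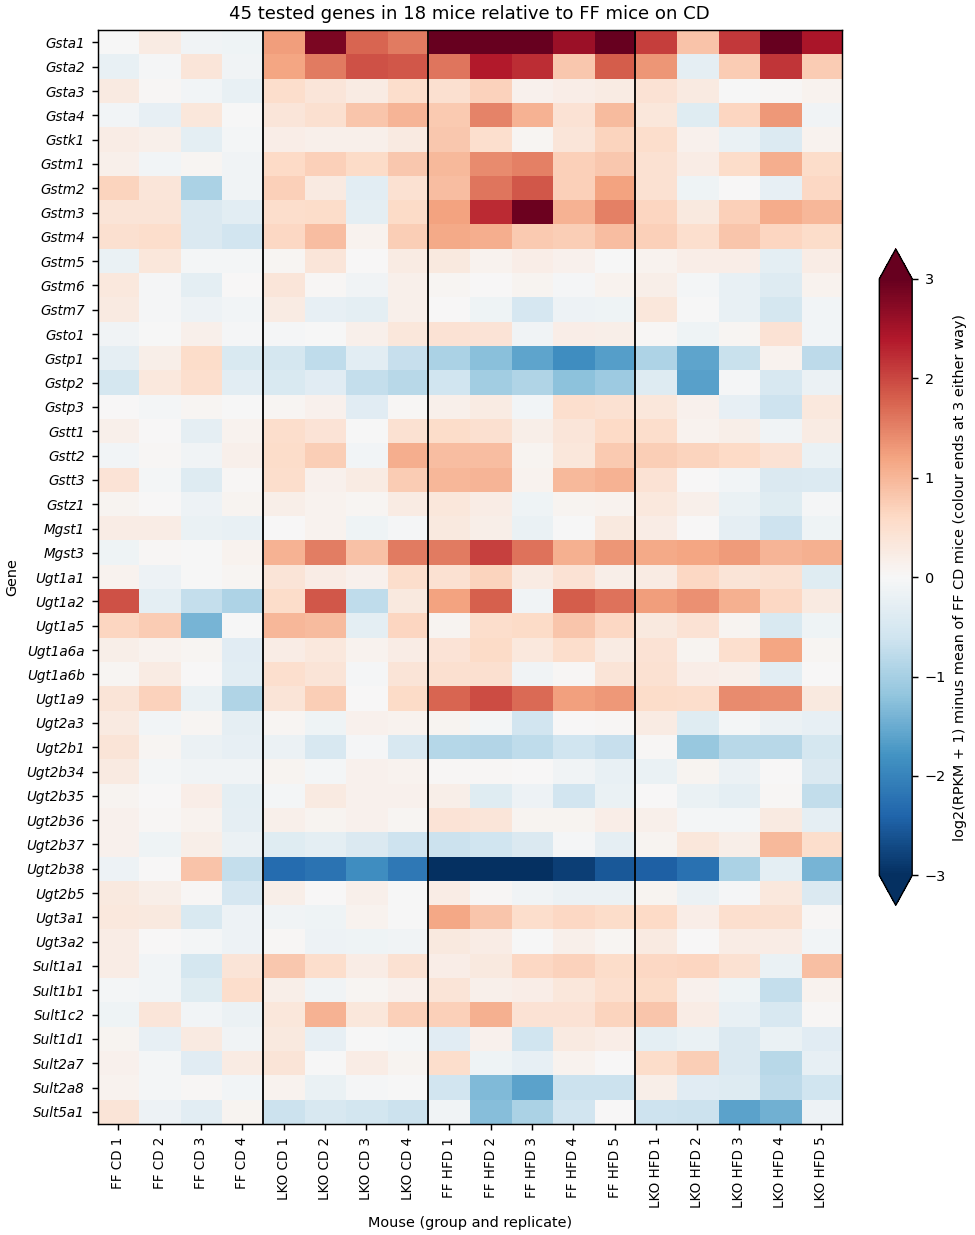
Level of the 45 tested members in each of the 18 mice as log2(RPKM + 1) minus the mean of the FF mice on CD, where red is higher and blue lower and the colour ends at 3 in either direction. Gsta1, Gsta2, Gstm1 and Mgst3 are red in most mice of the other 3 groups and strongest for Gsta1 in FF mice on HFD, and Ugt2b38 is blue in every mouse of those 3 groups, darkest in FF mice on HFD and palest in LKO HFD mouse 4.

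Members differed in how far mice of a group spread. The residual SD of the fit (log2) had a median of 0.27 over the 45 members and of 0.16 over all tested genes. It was 0.92 for Ugt1a2, 0.75 for Gsta1, 0.61 for Gsta2 and 0.59 for Ugt2b38, between the 98.8 and 99.7 percentiles of the tested genes, and 0.14 for Ugt3a2, the least variable member. Among members not named so far, the tested ones with the highest mean level were Ugt2b36 (290 RPKM) and Ugt2b34 (158 RPKM), and neither was called in any comparison.

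Members were compared for motifs in the 250 bases upstream of their RefSeq start (GRCm38.p6), which were found for 40 of the 45 tested genes, on both strands. TGACNNNGC, the core that NRF2 recognises, occurred in 3 of the 40 (Gsta3, Gstm5 and Mgst1), against 10.1% of 27025 promoters. GCGTG, the core bound by AHR, occurred in 8 (Gsta2, Gstm1, Gstm5, Gstp1, Gstp3, Mgst3, Sult1d1 and Ugt1a5), against 28.2% of promoters, and in Gstm5 a match to each overlapped. TTCNNNGAA, recognised by STAT5, occurred in Gsta1 and Ugt1a6a, against 7.18%, and the palindromic HNF1 motif in none, against 0.0074%. Gsta1 and Gsta2, which gave the largest rises of the alpha class, were identical at 184 of 251 aligned positions (73.3%) of these windows, at chr9:78230419-78230668 (plus strand) and chr9:78347146-78347395 (minus strand). They are shown because their agreement is uneven along the window, with capitals in Gsta2 for bases that differ from Gsta1 or have no counterpart there.
Gsta1: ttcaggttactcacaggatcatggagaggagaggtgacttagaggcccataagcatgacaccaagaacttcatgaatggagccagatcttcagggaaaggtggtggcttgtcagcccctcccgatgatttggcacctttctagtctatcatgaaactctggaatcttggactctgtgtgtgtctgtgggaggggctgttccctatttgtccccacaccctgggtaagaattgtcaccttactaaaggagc
Gsta2: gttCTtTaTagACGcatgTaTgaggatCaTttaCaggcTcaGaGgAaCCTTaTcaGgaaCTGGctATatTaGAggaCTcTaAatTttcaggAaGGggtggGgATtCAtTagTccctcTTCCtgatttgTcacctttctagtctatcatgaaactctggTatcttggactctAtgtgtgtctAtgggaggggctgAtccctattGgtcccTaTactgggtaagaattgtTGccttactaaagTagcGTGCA
The part of the window nearest the RefSeq start is the more alike. The Gsta2 window lies inside the GENCODE span of Gsta2 given above, and the Gsta1 window runs past the GENCODE start of Gsta1. RefSeq and GENCODE thus place these starts differently, and the windows are upstream by RefSeq only. A match or its absence describes these letters in this window only.

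Other genes of the pathway were counted from lists of assigned roles. Whether Arsa and Ces1d, listed as deconjugating, and Ptges2, listed as conjugating, act on phase II compounds was not tested. Among 9 tested genes that supply cofactors, HFD in FF mice raised Ugdh, which makes UDP-glucuronic acid (0.77, log2, adjusted p = 0.00845, limma), and Gclc, the limiting enzyme of glutathione synthesis (0.81, adjusted p = 0.00362), and lowered none. Of 7 tested NRF2 targets outside the families 4 rose (Nqo1, Gclc, Srxn1 and Hmox1), with Nqo1, a quinone reductase, at 1.54 (adjusted p = 1.29e-05). Gclm (0.12), Txnrd1 (0.11) and G6pdx (-0.44, adjusted p = 0.0693, limma) were not called. Over all tested genes, 5.11% were called higher and 1.49% lower in FF mice on HFD. Abcc3, which exports conjugates across the basolateral membrane, was the called gene among 3 tested exporters (2.07, adjusted p = 8.79e-06), and Nr1i3, which encodes CAR, was the called gene among 12 regulators (0.99, adjusted p = 0.000746). Of 11 genes listed as other conjugating enzymes 0 were called in limma and 3 had an unadjusted p under 0.05. Arsa was the called gene among 3 listed as deconjugating enzymes (0.74, adjusted p = 0.00619, limma). In LKO mice on HFD against CD, Hmox1 rose (0.74, adjusted p = 0.0411) and Inmt, a methyltransferase, fell by 1.65 (adjusted p = 0.012). In FF mice Inmt differed by -0.82 without being called (adjusted p = 0.0558, limma), and its interaction was not called (adjusted p = 0.336).

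Between genotypes on HFD, Nqo1 (-0.87, adjusted p = 0.0051, limma), Ugp2 (-0.72, adjusted p = 0.000983) and Hnmt (-0.63, adjusted p = 0.0249) were lower in LKO mice, and on CD 0 genes of these pathway lists were called. An unadjusted p under 0.05 was reached there by 3 of 9 cofactor genes, 3 of 11 other conjugating enzymes, 2 of 3 deconjugating enzymes, 2 of 12 regulators, 1 of 3 exporters and 4 of 7 NRF2 targets, and by 851 of all 11090 tested genes. The interaction was called for Nqo1 (-1.57), Srxn1 (-0.97), Abcc3 (-1.69), Hnmt (-0.86) and Nr1i2, which encodes PXR (-0.67). Sex-biased liver genes outside the families were counted too. In FF mice on HFD, 4 of 6 male-biased genes (Hsd3b5, Cyp2d9, Cyp7b1 and Mup20) fell, and Cyp4a12a and Elovl3 were not called. All 3 of 3 tested female-biased genes (Cyp2b9, Cyp2a4 and Cyp17a1) rose in these mice. Over all tested genes, 5.11% were called higher and 1.49% lower there. In LKO against FF mice on HFD, 3 of 6 male-biased genes were higher and 2 of 3 female-biased genes lower. The shares over all tested genes were 0.902% higher and 1.17% lower. On CD, Cyp7b1 was the called gene of these lists and lower in LKO mice (-1.26, adjusted p = 0.036). The part of these changes in those of the members was not tested.

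The 19 members below the filter had a mean of at most 0.273 RPKM, and 6 of them never exceeded an estimated 3 reads in a mouse. They include Sult1e1, the estrogen sulfotransferase, Sult3a1, a form known from female mouse liver, Mgst2 and most Sult2a copies. Sult2a4 and Sult2a5 held values such as 1.05e-07 and 1.78e-09 RPKM, too small for any whole read, so reads had been split between genes. Of the 45 tested members, 13 shared no 50-base stretch with another gene, 16 shared over 10% and 8 over 50%, and values of the last group depend on how such reads were divided.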

How the data were processed

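RNA was sequenced from liver of 18 mice in 4 groups, and mice were grouped by the genotype and diet in the labels. The authors deposited RPKM values per gene and mouse: per the submitters' processing notes, reads were aligned with HISAT2 (2.0.4) to mm10 and quantified in Partek. The annotation, the strand setting and the handling of reads that match several genes were not given in the sources used here. The labels name a small RNA library kit and also a standard RNA-seq protocol, so the labels alone do not settle the library type. In the RPKM values each mouse had 9285 to 10000 genes at 1 RPKM or more, and hepatocyte mRNAs such as Alb were on the marker list with the highest summed level. Depth was recovered from the steps between low RPKM values (at or under 0.2, up to 10 reads) of single-exon genes, and floors of 3 reads cover counting error only.

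Differences were fitted with limma (3.58.1, R 4.3.3) on log2(RPKM + 1) in all 18 mice with 1 coefficient per group, a trend in the prior variance and a filter of mean RPKM 0.5. This scale understates the change of low genes. P-values were adjusted by Benjamini-Hochberg over 11090 genes, and calls needed an adjusted p under 0.05 and a fold above 1.5. The script was tested on simulated data. Tables, sequences and plots were handled in Python 3.11.15 with pandas 2.3.3, numpy 2.4.6, Biopython 1.88 and matplotlib 3.10.9. Gene positions and shared 50-base stretches came from GENCODE M21 (GRCm38), and promoters from RefSeq (GRCm38.p6), matched for 56 of 64 members.

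The members and the lists (cofactor supply, other conjugating and deconjugating enzymes, regulators, exporters, NRF2 targets, sex-biased genes, cell markers) were chosen with earlier results of these data known. Named were the 18 members called in any comparison, the most abundant of each of 12 subfamilies and the 3 with the smallest unadjusted p in each pairwise comparison, 27 in all. Other members named in passing were chosen after their values were seen. Sts, on the list of deconjugating enzymes, was not analysed here. Alternatives were another scaling, quantile normalization, other filters and pseudocount, adjusted p alone, unmoderated variance, fits of only the groups compared, a replicate block and leaving out each mouse.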

Additional observations from a re-analysis of the deposited data

Results flagged for a closer look

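Of 108 groups of 4 or 5 mice examined over the 27 named members, 4 held a mouse that stood apart from the others by Dixon's criterion, where about 1 in 20 would do so by chance (5.4 groups). LKO CD mouse 3 was low for Gstm3 (9.38 RPKM, the other 3 at 17.3 to 17.9 RPKM). LKO HFD mouse 2 was low for Gstp2 (2.92 RPKM, the other 4 at 7.57 to 10.7 RPKM). FF HFD mouse 3 was low for Gstt3 (13.98 RPKM, the other 4 at 26.6 to 27.6 RPKM). FF CD mouse 2 was high for Sult1c2 (5.50 RPKM, the other 3 at 3.47 to 3.76 RPKM).

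The HFD response differed between LKO and FF mice, by the interaction term itself in limma, in 8 members. The difference (log2, response in LKO minus response in FF) was -3.51 for Gsta1, -2.45 for Gsta2, -1.65 for Mgst3, -1.35 for Gstt3, -1.20 for Sult1c2, -1.19 for Gstm1, 1.24 for Ugt2b37 and 3.61 for Ugt2b38.

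Among the members under the filter on low values, Sult6b2 was at 2.79 RPKM (about 158 estimated reads) in FF HFD mouse 3 and at 0 to 0.0831 RPKM in all other mice. Gstt4 was at 0.123 RPKM (about 4 estimated reads) in LKO HFD mouse 3 and at 0 in all other mice.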

How the results depend on the processing

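Of 33 calls of a member in a comparison, 23 held under every alternative run and 10 were lost under at least 1, all 10 of them with at least 1 mouse left out and 7 under another setting, and none reversed. The number called in LKO against FF mice on CD was 1 without the filter on low values, 1 without moderation of the variance and 5 in a fit of only the groups compared, and on HFD it was 3 without the filter and 2 without moderation. Leaving out a single mouse at a time, the counts ranged from 15 to 19 (HFD in FF mice), 0 to 2 (HFD in LKO mice), 1 to 3 (genotype on CD), 2 to 6 (genotype on HFD) and 6 to 11 (interaction). The count for HFD in LKO mice fell to 0 when LKO CD mouse 3 was dropped and became 2 when LKO HFD mouse 1 was dropped, and that on CD was 1 without FF CD mouse 2 or 3 or LKO CD mouse 2 or 4. Deviations from the group means were correlated between mice with the same number (25 pairs, r from -0.17 to 0.33, 10 over 0.1). Mice with different numbers were not compared in this way, so these values cannot show whether the numbers mark pairs. A replicate block gave 19, 1, 2, 4 and 9 calls in the same order. The cause of these shifts was not tested. Members under about 3 reads per mouse could not be compared at this depth.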
